A study of Mus musculus with 42 samples.

Results

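Integrin genes were examined in natural killer (NK) cells of the mouse uterus. The 10 genes were taken from a fixed list, Itga1, Itga2, Itga4, Itgae, Itgal, Itgam, Itgad, Itgax, Itgb1 and Itgb2, and all 10 were found among the 54353 genes shared by the bulk libraries. The study asked how tissue-resident NK cells (trNK) change while the uterine lining is remodelled around the embryo, and what IL-21 and STAT3 contribute. Read counts of 34 bulk RNA-Seq libraries in 17 groups of 2, and counts of unique molecular identifiers (UMIs) in 1 pooled set of single cells, were used. The chromatin accessibility libraries were not analysed here.

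Integrins are surface receptors made of an α and a β chain, each encoded by its own gene, that hold a cell to matrix proteins or to other cells. The β1 chain (Itgb1) pairs with the α1 chain (Itga1, CD49a) and the α2 chain (Itga2, CD49b), which bind collagens and laminins, and with the α4 chain (Itga4, CD49d), which binds VCAM-1 and fibronectin. The β2 chain (Itgb2, CD18) pairs with the αL chain (Itgal, CD11a), the αM chain (Itgam, CD11b), the αX chain (Itgax, CD11c) and the αD chain (Itgad, CD11d). With αL it forms LFA-1, which binds ICAM proteins. The αE chain (Itgae, CD103) binds E-cadherin and pairs with the β7 chain (Itgb7), whose gene is not on the list and was read as a partner. CD49a marks resident NK cells of the uterus, and CD49b and high CD11b mark mature conventional NK cells (cNK).

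All animals were wild-type C57BL/6 mice, aged 8 to 12 weeks by the methods. The gestation libraries came from virgin mice and from mice at gestation day 6.5 (gd6.5) and 8.5 (gd8.5), sorted as CD45+NK1.1+NKp46+CD49a+CXCR6- lymphocytes. The subset libraries divided the same gate at gd8.5 by CD55 and 4-1BB into trNK-V (both low, CB_low in the labels), trNK-D (both intermediate, CB_int) and trNK-T (both high, CB_hi). Because CD49a, the product of Itga1, was part of the gate, these cells were selected for it, and no difference of Itga1 from cells outside the gate can be read from them. The inhibitor culture kept trNK for 72 h without IL-21, in 20 ng/mL IL-21, or in IL-21 plus 1 µM of the STAT3 inhibitor Stattic by the labels (the methods give another concentration), and NK1.1+ cells were then sorted. By the study's text these were trNK-V of gd6.5 mice, and by its methods the medium of every arm held IL-15. The time course held trNK of gd6.5 mice, which were sorted trNK-V by the study's text. They were kept for 0, 6, 24 or 72 h in 10 ng/ml IL-15 with or without 20 ng/ml IL-21. That IL-15 concentration is the one in the sample characteristics, and the treatment protocol in the labels gives another. The labels do not say which libraries came from separate animals or cultures, so p-values measure the spread between these libraries. In bulk samples, fewer cells of a type and less RNA per cell cannot be told apart.

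The libraries held between 11862089 and 66468883 counts. The NK genes Ncr1 and Klrb1c (which encode NKp46 and NK1.1) and Eomes were counted in every library. The virgin libraries stood apart from each other: Itga4 read 12 and 2.86 RPKM (counts per kilobase of exon, scaled to the same library total) in virgin replicates 1 and 2, and Itgb7 read 70.2 and 4.17 RPKM. The 11 trNK markers summed to 1460 RPKM in virgin replicate 1 and 16751 in replicate 2, beside 16565 to 17909 at gd8.5, so each comparison with virgin trNK rests on 2 unlike libraries. The 4 experiments were never fitted together. The time course was prepared with another amplification kit by its labels, so its levels are not compared with those of the others.

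Of the 10 genes, 4 lie in 1 stretch of chromosome 7 (GRCm38), all on the plus strand. These are Itgal at chr7:127296260-127335138, Itgam at chr7:128062640-128118491, Itgax at chr7:128129547-128150657 and Itgad at chr7:128154376-128223816. Itgam and Itgax are 11055 bases apart, and Itgax and Itgad 3718 bases. Itga2 (chr13:114833081-114932100) and Itga1 (chr13:114953096-115101964) are neighbours on the minus strand, 20995 bases apart. Itga4 (chr2:79255426-79333123), Itgae (chr11:73090583-73147446), Itgb1 (chr8:128685654-128733200) and Itgb2 (chr10:77530252-77565708) stand alone, on the plus strand. In the annotation (GENCODE vM21), 3450 of the 5024 exon bases of Itgam (68.7%) also belong to Gm49368 on the same strand, so counts of Itgam are uncertain. Itga4 shares 1124 exon bases with Cerkl on the other strand, and Itga1 shares 685 with Gm49395. Itgad shares 388 exon bases with 4931431B13Rik on the other strand and 330 with the pseudogene Gm17831, and smaller stretches with Cox6a2 and Gm39091. The strand setting of the counting is not given in the sources used here. Itgax, Itgb1, Itgb2, Itgal, Itga2 and Itgae share no exon base with another gene.

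The 250 bases before the start of 6 of the 10 genes could be read from RefSeq promoters (GRCm38.p6), namely Itga1, Itga2, Itga4, Itgam, Itgax and Itgb1. The first below belongs to Itgax, the integrin called in the most comparisons (chr7:128129300-128129549, plus strand). The second belongs to its neighbour Itgam (chr7:128062390-128062639, plus strand). The last belongs to Itga4 (chr2:79255176-79255425, plus strand), the only one with a match to a motif searched, ACCACA, the reverse complement of the Runx motif TGTGGT, which stands in capitals with its first base 60 bases before the start.
Itgax promoter: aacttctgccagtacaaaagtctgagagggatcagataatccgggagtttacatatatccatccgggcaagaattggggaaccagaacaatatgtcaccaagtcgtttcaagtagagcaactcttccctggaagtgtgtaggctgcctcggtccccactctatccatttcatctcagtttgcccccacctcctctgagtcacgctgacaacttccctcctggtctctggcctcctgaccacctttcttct
Itgam promoter: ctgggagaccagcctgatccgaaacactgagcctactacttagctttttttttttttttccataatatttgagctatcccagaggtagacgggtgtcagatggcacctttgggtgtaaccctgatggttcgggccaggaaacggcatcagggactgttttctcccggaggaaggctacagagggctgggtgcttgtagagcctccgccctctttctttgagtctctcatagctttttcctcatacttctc
Itga4 promoter: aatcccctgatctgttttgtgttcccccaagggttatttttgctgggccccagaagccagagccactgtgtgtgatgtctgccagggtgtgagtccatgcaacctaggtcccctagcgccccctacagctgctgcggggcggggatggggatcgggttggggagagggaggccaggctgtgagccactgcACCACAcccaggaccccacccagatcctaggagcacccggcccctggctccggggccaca
The motifs were searched on both strands. TGTGGT was found in 14% of the 32851 promoters in the table, cut to the same length. The STAT motif TTCNNNGAA was in 7.02% and the T-box motif AGGTGTGA in 1.12% of all promoters, and neither was in any of the 6. These are matches of letters in a short window and say nothing of binding.

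Per exon length, Itgb1 was the most abundant integrin in most groups. It ranged from 25.1 to 210 RPKM with a median of 61.2, and had the highest group mean in 16 of the 17 groups. Itgb2 ranged from 0.747 to 198 RPKM with a median of 46.0, and was the highest in the inhibitor culture with IL-21, but lay below Itgax at 24 h in IL-15 alone and at 72 h with IL-21, and below 5 members at 72 h in IL-15 alone. Itgal (6.87 to 45.3 RPKM), Itgax (3.93 to 105) and Itga1 (1.64 to 30.6) followed and were above 1 RPKM in all libraries. Itgal and Itgax changed places between groups. The other members were low. Itgad reached 10.5 RPKM, Itga4 12, Itga2 5.09, Itgam 6.97 and Itgae 5.86 RPKM, and Itgae and Itgam were each at 0 in 3 libraries. Under the filter that the study's methods give (both libraries of some group above an RPKM of 10), 5 members could be tested, Itga1, Itgal, Itgax, Itgb1 and Itgb2, and 4 in the time course, where Itga1 failed it. All 10 passed edgeR's filterByExpr, a filter on counts, which was used as a second fit.

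**Figure D1:**
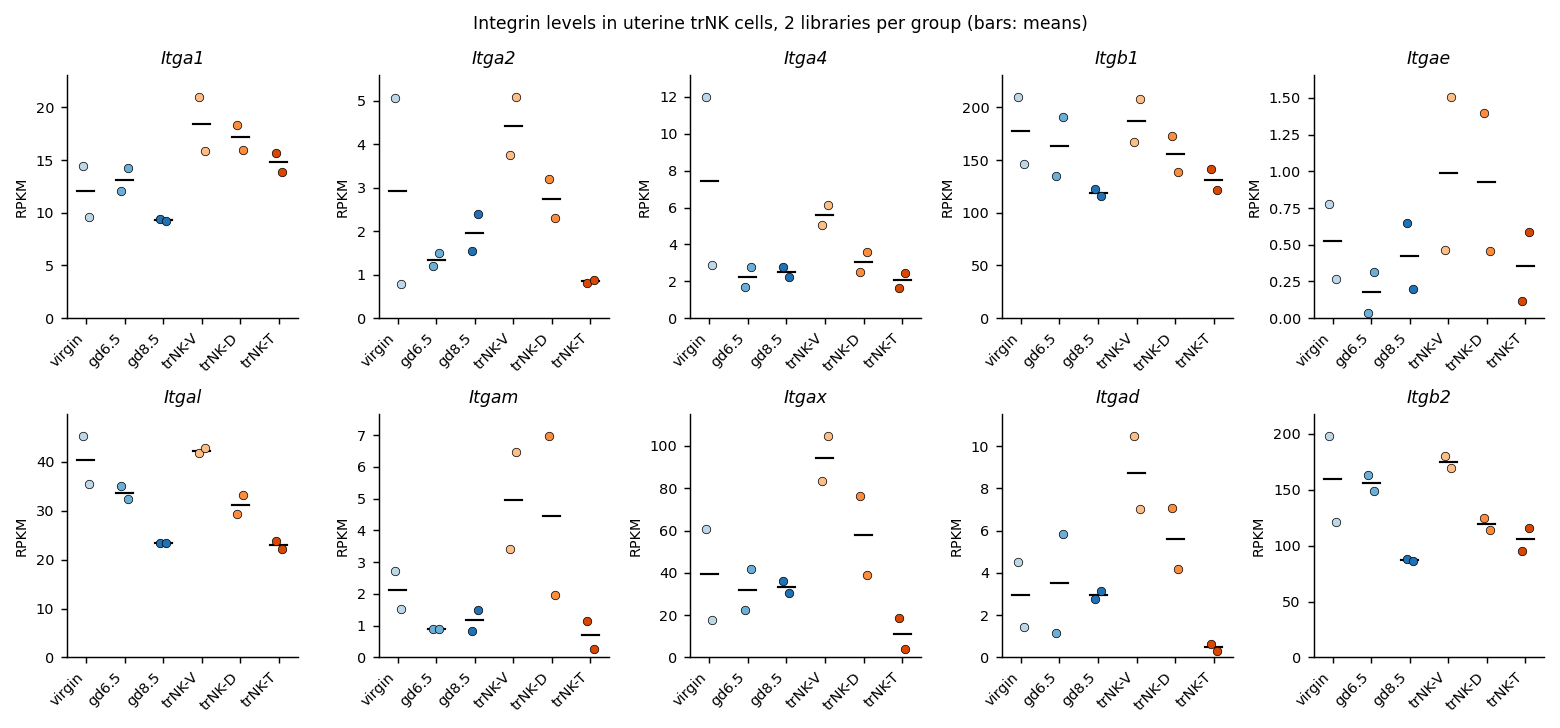
RPKM of the 10 integrins (y axes, each from 0) in the libraries of the gestation and subset experiments (x axis), with points for single libraries and horizontal bars for the mean of the 2 libraries of a group. Itgax falls from 83.6 and 105 RPKM in trNK-V to 18.7 and 3.93 in trNK-T, while Itga1 stays between 13.9 and 21 RPKM over the 3 subsets.

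The gestation libraries show whether trNK change their integrins as pregnancy begins. No integrin changed by more than 2-fold past the test in any of the 3 comparisons, and the values that lay apart were mostly lower at gd8.5. Itgal, the α chain of LFA-1, read 45.3 and 35.4 RPKM in virgin trNK, 35.1 and 32.3 at gd6.5, and was down to 23.3 in each gd8.5 library. Its partner Itgb2 read 198 and 121 RPKM in virgin trNK, 163 and 148 at gd6.5 and then 87.9 and 86.6 at gd8.5. Both genes were lowest at gd8.5, with no overlap with the other groups. Against virgin trNK, the log2 fold change at gd8.5 was -0.85 (SE 0.17, edgeR adjusted p = 0.126) for Itgal and -0.93 (SE 0.25, adjusted p = 0.206) for Itgb2. Itgb1 read 210 and 146 RPKM in virgin trNK, 135 and 191 at gd6.5, then 122 and 116 at gd8.5, so it was also lowest at gd8.5.

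In the comparison of gd8.5 with virgin trNK, 6 members lay lower without overlap, Itga1, Itga4, Itgal, Itgam, Itgb1 and Itgb2, and none higher. Of all 14040 genes, 17.9% lay lower and 21.2% higher in that way. In the comparison of gd6.5 with virgin trNK, 3 lay lower (Itga4, Itgal and Itgam), beside 20.1% of all genes, and none higher, beside 27%. Itga4 read 12 and 2.86 RPKM in virgin trNK, 1.69 and 2.76 at gd6.5 and then 2.78 and 2.25 at gd8.5, so its difference rested on virgin replicate 1. At gd8.5 against gd6.5, Itga1, Itgal, Itgb1 and Itgb2 lay lower, beside 27.6% of all genes, and Itga2 higher, beside 23.5%.

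edgeR called 0 of the 5 members tested in each of the 3 comparisons, where it called 6.17% of all genes at gd6.5 against virgin, 0.422% at gd8.5 against virgin and 0% at gd8.5 against gd6.5. At an unadjusted p below 0.05 it found 0, 3 and 2 members in these comparisons, and DESeq2 and limma called 0 in each. Without virgin replicate 2, Itgax was called lower at gd6.5 (log2 fold change -1.01, adjusted p = 0.0484) and Itgal and Itgb2 were called lower at gd8.5 (-1.02 with adjusted p = 0.0077, and -1.25 with adjusted p = 0.00383). Itgax had read 60.9 and 17.5 RPKM in virgin trNK, 22.5 and 41.8 at gd6.5 and then 36.3 and 30.7 at gd8.5, and overlapped between all groups. Without virgin replicate 1, its log2 fold change had the opposite sign, 0.79 at gd6.5 (adjusted p = 0.143) and 0.86 at gd8.5 (adjusted p = 0.28). Over all 10 members in the second fit, the median log2 fold change at gd8.5 against virgin was -0.55, with 9 below 0, while the median of all genes was 0.

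Among the other genes of the pathway, the list of integrin ligands had 4 of its 22 genes tested, of which 2 were called lower at gd6.5 than in virgin trNK. These were Icam1 (36.4 and 37.4 in virgin against 15.0 and 22.3 RPKM, log2 fold change -1.07, adjusted p = 0.0366) and Icam2 (39.9 and 16.1 against 8.62 and 6.55 RPKM, -1.97, adjusted p = 0.0485), both of which are ligands of LFA-1. Icam2 passed the filter on RPKM only through virgin trNK, the group where it was high, so its call is description only. Neither call was made in the second fit. None of the 15 genes of integrin activation tested, out of 30, was called in any of these comparisons, nor was the 1 other integrin of 16 that was tested.

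In the second fit every member had a lower fitted level in trNK-T than in trNK-V of gd8.5 mice, and the fitted folds were lowest for Itgad, Itgax and Itgam. Itgax read 83.6 and 105 RPKM in trNK-V, 76.2 and 39.2 in trNK-D, and 18.7 and 3.93 in trNK-T. Its libraries did not overlap between any of the 3 subsets, and the trNK-T libraries were the lowest of the experiment. The log2 fold change of trNK-T against trNK-V was -3.05 (SE 0.70, edgeR adjusted p = 0.0193), or 8.28-fold lower. This was the 1 call among the 5 members tested, beside 21.2% of all genes called in this comparison.

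The call on Itgax was lost without trNK-V replicate 1 (log2 fold change -3.21, adjusted p = 0.0534) and without trNK-V replicate 2 (-2.87, adjusted p = 0.0789), and in the second fit (-2.88, adjusted p = 0.0522). Markers of dendritic cells, which carry CD11c, moved with it. The summed level of the 5 dendritic genes was 126 to 368 RPKM in trNK-V, 103 to 384 in trNK-D and 3.29 to 5.78 in trNK-T. The class II genes H2-Ab1 and H2-Aa made up most of it, with H2-Ab1 at 198 and 99.6 RPKM in trNK-V, 166 and 82.8 in trNK-D, and 2.96 and 2.01 in trNK-T. Cd209a read 70.05 and 0 RPKM in trNK-V and 147 and 0 in trNK-D. In trNK-V the library with more Itgax had no Cd209a and less H2-Ab1, and in trNK-D the library with more Itgax held the Cd209a and more H2-Ab1. Zbtb46, a transcription factor of dendritic cells, read between 0.343 and 2.37 RPKM in all 6 libraries, and Flt3 at most 0.682. The 7 macrophage genes summed to 4.45 to 8.06 RPKM in trNK-V, 14.2 to 20.1 in trNK-D and 0.735 to 2.07 in trNK-T. The part of other cells in the fall of Itgax was not tested in these libraries.

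Itgad and Itgam were also lowest in trNK-T, at lower levels than Itgax. Itgad read 10.5 and 7.01 RPKM in trNK-V, 7.06 and 4.19 in trNK-D, and 0.647 and 0.318 in trNK-T. The trNK-T libraries were far below all others. It was called in the second fit, at a log2 fold change of -3.98 (SE 0.51, adjusted p = 0.0152) or 15.8-fold lower in trNK-T than in trNK-V. Itgam read 3.41 and 6.48 RPKM in trNK-V, 6.97 and 1.96 in trNK-D, and 1.15 and 0.252 in trNK-T, which did not overlap with the other subsets. Its fold change was -2.63 (SE 0.88, adjusted p = 0.116), and its shared exons make the count uncertain.

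The chains of LFA-1 moved less. Itgal read 41.7 and 42.8 RPKM in trNK-V, 29.3 and 33.1 in trNK-D, and 23.8 and 22.1 in trNK-T, 3 levels with no overlap. Its log2 fold change in trNK-T against trNK-V was -0.88 (SE 0.15, adjusted p = 0.00882), which passed the test but not the 2-fold limit. Itgb2 read 180 and 170 RPKM in trNK-V, 125 and 114 in trNK-D, and 94.8 and 116 in trNK-T. It was higher in trNK-V than in both other subsets, which overlapped. Its fold change of -0.73 (SE 0.16, adjusted p = 0.017) likewise passed the test without reaching 2-fold. In the second fit the adjusted p was 0.0503 for Itgal and 0.102 for Itgb2.

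Of the β1 group, Itga2 fell and Itga1 and Itgb1 did not pass the test. Itga2, whose protein CD49b is carried by cNK, read 3.74 and 5.09 RPKM in trNK-V, 3.20 and 2.30 in trNK-D, and 0.819 and 0.886 in trNK-T, falling at each step without overlap. The second fit called it in trNK-T against trNK-V at -2.18 (SE 0.38, adjusted p = 0.0254), or 4.54-fold lower. The 9 cNK markers moved with it, summing to 2013 to 3098 RPKM in trNK-V, 1293 to 1317 in trNK-D and 454 to 501 in trNK-T. S1pr5 was at 0 in trNK-T. The list holds Klra8 and Klra4, which trNK-like single cells also carried, so its sum does not count cNK alone. The part of cNK in the fall of Itga2 was not tested. Itga4 read 5.05 and 6.11 RPKM in trNK-V, 2.50 and 3.59 in trNK-D, and 1.63 and 2.47 in trNK-T (-1.25, SE 0.34, adjusted p = 0.0709). Itga1, the gene of the gate, read 21 and 15.9 RPKM in trNK-V, 18.4 and 15.9 in trNK-D, and 15.6 and 13.9 in trNK-T, with a log2 fold change of -0.32 (SE 0.18, adjusted p = 0.214). Itgb1 read 167 and 208 RPKM in trNK-V, 173 and 139 in trNK-D, and 142 and 122 in trNK-T (-0.51, SE 0.19, adjusted p = 0.0781). Itgae stayed at or below 1.51 RPKM in all 6 libraries and overlapped between the subsets.

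**Figure D2:**
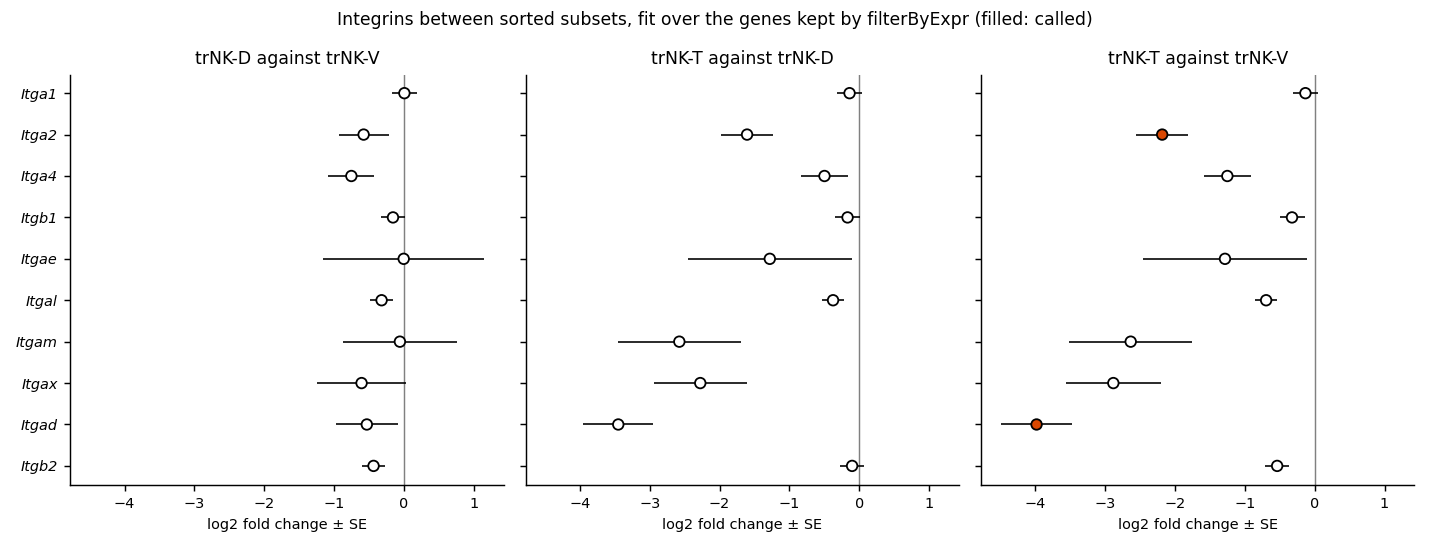
Log2 fold change ± SE (x axis) of the 10 integrins (y axis) between the sorted subsets, 2 libraries each, in the edgeR fit over the genes that passed filterByExpr, with filled points for called genes. The values for trNK-T against trNK-V lie between -3.98 for Itgad and -0.13 for Itga1, and those of Itgad and Itga2 were called.

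In trNK-T against trNK-V, 9 of the 10 members lay lower without overlap, all but Itgae, and none higher. Of all 14335 genes, 35.4% lay lower and 24.5% higher. Scaled by TMM, 8 lay lower, since Itga1 then overlapped. The second fit called 2 of the 10 members (Itga2 and Itgad), beside 6.75% of all genes. The median log2 fold change over the 10 was -1.27, with all 10 below 0, and that of all genes was -0.05. From trNK-D to trNK-T, 7 members lay lower and none higher (27.5% and 20.3% of all genes), and the log2 fold change was -2.35 for Itgax (SE 0.68, adjusted p = 0.117). In the second fit it was -3.45 for Itgad (SE 0.50, adjusted p = 0.113). From trNK-V to trNK-D, 5 lay lower and none higher (24.9% and 17.9%), with -0.70 for Itgax (SE 0.65, adjusted p = 0.559). edgeR called 0 of 5 members in both steps, where it called 1.75% and 0.32% of all genes. At an unadjusted p below 0.05 it found 2 members in each, and DESeq2 and limma called 0. Without trNK-T replicate 1, Itgax was called in trNK-T against trNK-D (-3.86, adjusted p = 0.0364).

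Other genes of the integrin pathway were read in trNK-T against trNK-V, where 21.2% of all genes tested were called. Of 16 genes of integrin activation tested, out of 30, 3 fell and none rose, a share close to that of all genes, with a median log2 fold change of -0.37. Skap1, an adaptor that links the antigen receptor to integrin activation, read 94.1 and 95.2 RPKM in trNK-V and 23.2 and 18.9 in trNK-T (-2.17, adjusted p = 0.00176). Rassf5 and Apbb1ip, effectors of the GTPase Rap1 that switches integrins on, each fell by 1.26 on the log2 scale (adjusted p = 0.00649 and 0.016). Of 5 ligands tested, out of 22, Icam2 (-2.33, adjusted p = 0.00458) and Icam1 (-1.47, adjusted p = 0.00859) fell. Spp1, the gene of the ligand osteopontin, rose by 3.49 (adjusted p = 0.000571), from 1185 and 903 RPKM in trNK-V to 10389 and 12937 in trNK-T, and is also on the list of trNK markers. Among 2 other integrins tested, out of 16, Itgb3, which pairs with the αV chain, read 2.37 and 0.205 RPKM in trNK-V and 14.6 and 11.5 in trNK-T (3.34, adjusted p = 0.0375). Itgb3 passed the filter on RPKM only through trNK-T, and Apbb1ip and Icam2 only through trNK-V, the group where each was high. The calls on these 3 genes under that filter are therefore description only. The second fit did not call Itgb3 or Apbb1ip, and it called Icam2 (-2.15, adjusted p = 0.0197).

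The inhibitor culture addressed how IL-21 and STAT3 bear on these genes. With IL-21 the β1 chain and its α partners lay lower and the β2 chain higher than without it, but edgeR called none of them. DESeq2 called Itgb1 (-1.69, adjusted p = 0.00238, beside 3.9% of all genes), as did edgeR without a filter (-1.67, adjusted p = 0.0104, beside 0.687%). Itgb1 read 126 and 210 RPKM without IL-21, 36.2 and 54.2 with IL-21, and 92.5 and 62.6 with Stattic added. The IL-21 libraries were the lowest and those with Stattic lay between. The log2 fold change was -1.72 with IL-21 (SE 0.39, adjusted p = 0.123) and 0.89 from IL-21 to IL-21 with Stattic (SE 0.38, adjusted p = 0.246). Itgb2 read 44.3 and 65.6 RPKM without IL-21, 76.2 and 157 with IL-21, and 69.1 and 47.6 with Stattic added. It was highest with IL-21 (1.25, SE 0.42, adjusted p = 0.349), and the Stattic libraries overlapped with those without IL-21.

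Itga1 read 17.9 and 30.6 RPKM without IL-21, 9.97 and 12 with IL-21, and 11.2 and 14 with Stattic added. Both groups with IL-21 lay below the group without it (-0.96 for IL-21, SE 0.35, adjusted p = 0.419). Itga4 read 3.76 and 2.00 RPKM without IL-21, 0.628 and 0.504 with IL-21, and 1.11 and 3.97 with Stattic added, so the IL-21 libraries were the lowest. Itga2 read 4.03 and 3.00 RPKM without IL-21, 1.97 and 1.73 with IL-21, and 1.89 and 0.666 with Stattic added. Itgal stayed between 24.9 and 34.4 RPKM and Itgax between 22.3 and 49.9 RPKM in the 6 libraries. Itgam was at or below 0.928 RPKM throughout.

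Itgae was counted in both libraries without IL-21 (1.58 and 1.67 RPKM) and with IL-21 (0.412 and 0.761), and was at 0 in both libraries with Stattic. A floor of 3 counts per library gives at least 20.8-fold lower than with IL-21 and at least 57.5-fold lower than without. It covers counting error only, since these PCR reads carry no molecular identifiers. In the time course, Itgae held 248 and 0 counts in the replicates at 72 h with IL-21, so these are no firm minima. In the second fit the adjusted p was 0.193 and 0.13. Itgad read 2.00 and 3.36 RPKM without IL-21, 2.44 and 2.06 with IL-21, and 0 and 0.567 with Stattic.

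**Figure D3:**
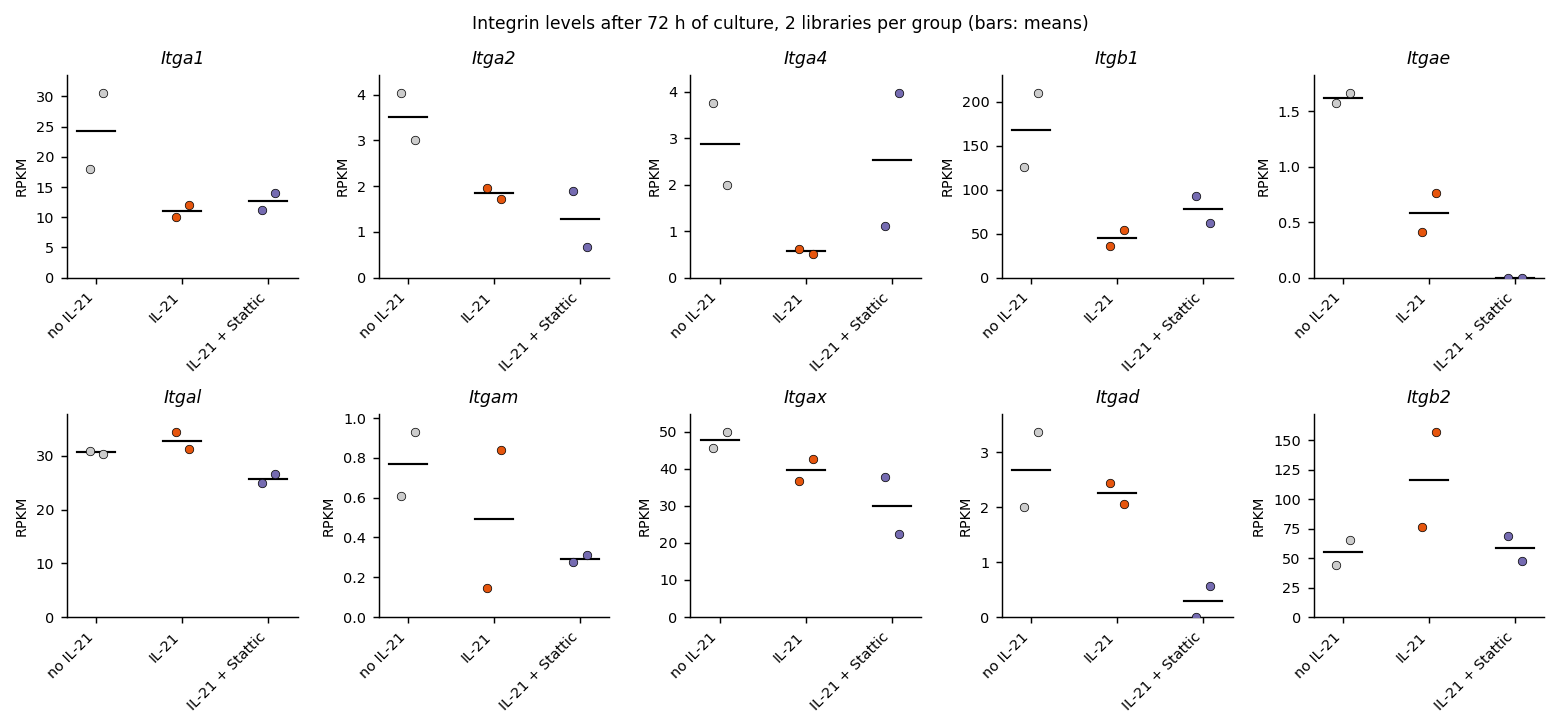
RPKM of the 10 integrins (y axes, each from 0) in the 3 arms of the inhibitor culture after 72 h (x axis), with points for single libraries and horizontal bars for the mean of the 2 libraries of a group. Itgb1 is lowest with IL-21 (36.2 and 54.2 RPKM), Itgb2 is highest there (76.2 and 157 RPKM), and Itgae is at 0 in both libraries with Stattic.

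With IL-21, 6 members lay lower without overlap (Itga1, Itga2, Itga4, Itgae, Itgax and Itgb1), beside 26.3% of all genes, and 2 lay higher (Itgal and Itgb2), beside 10.3%. Scaled by TMM, 5 lay lower, since Itgax then overlapped. From IL-21 to IL-21 with Stattic, 2 lay higher (Itga4 and Itgb1, 15.2% of all genes) and 4 lower (Itgae, Itgal, Itgad and Itgb2, 27.3%). From the culture without IL-21 to that with both agents, 8 lay lower (34.7% of all genes) and none higher (11.5%). Scaled by TMM, 17.7% of all genes lay lower and 15.8% higher with IL-21, and 24.7% lower and 18.3% higher with both agents, where 6 members lay lower. edgeR called 0 of 5 members in the 3 comparisons, where it called 0.289%, 2.96% and 4.74% of all genes. It found 3, 1 and 0 members at an unadjusted p below 0.05, limma called 0 in each, and DESeq2 called 1 member, Itgb1 with IL-21. Spp1 rose with IL-21 (4.05, adjusted p = 0.0324) and fell when Stattic was added (-2.56, adjusted p = 0.0413), though neither call was made in the second fit, and no other gene of the 3 pathway lists was called.

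The time course shows when integrins differ with IL-21. Before culture and at 6 and 24 h no integrin passed the test, and at 72 h the β2 chain was higher with IL-21. Itgb2 read 15.6 and 14.3 RPKM at 0 h in IL-15 alone, 14.9 and 7.67 at 6 h, 5.66 and 16.1 at 24 h, and 3.77 and 0.747 at 72 h. With IL-21 it read 9.22 and 21.8 RPKM at 0 h, 18.6 and 23.7 at 6 h, 18.2 and 14 at 24 h, and 19.1 and 11.3 at 72 h. The 72 h libraries in IL-15 alone were the lowest of the experiment, while those with IL-21 stayed within the range of the earlier times. Of the 4 libraries at 72 h, 3 stood apart from the rest in scaling. The TMM factors were 0.859 and 0.736 in IL-15 alone and 0.985 and 0.708 with IL-21, and those of the other 30 bulk libraries lay between 0.881 and 1.16. The chi-square per degree of freedom between replicates was 678 in IL-15 alone and 996, the highest of all groups, with IL-21. The part of this in the values at 72 h was not tested. At 72 h the log2 fold change with IL-21 was 2.71 (SE 0.71, adjusted p = 0.0371), or 6.56-fold higher.

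That was the 1 call among 4 members tested at 72 h, beside 8.08% of all genes. It rested on the whole set of libraries. It was lost without 72 h replicate 2 in IL-15 alone (log2 fold change 2.01, adjusted p = 0.0858) and without 72 h replicate 1 with IL-21 (2.54, adjusted p = 0.0886). It was also lost without either library of 0 h or 6 h in IL-15 alone, or of 6 h or 24 h with IL-21, which left the fold change at 2.71 and gave adjusted p from 0.0535 to 0.0615. In the second fit it held (2.67, adjusted p = 0.046), but it was lost with only the groups compared (2.69, adjusted p = 0.788, where 0% of all genes were called) and with the replicate number as a block (2.74, adjusted p = 0.0514).

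Itgax moved in both directions with time. In IL-15 alone it read 10.7 and 11.5 RPKM at 0 h, 10.2 and 9.16 at 6 h, 15.9 and 12 at 24 h, and 8.10 and 13.8 at 72 h. With IL-21 it read 10.5 and 16.7 RPKM at 0 h, 4.51 and 5.52 at 6 h, 9.42 and 8.27 at 24 h, and 34.6 and 20.7 at 72 h. It was thus lower with IL-21 at 6 and 24 h and higher at 72 h, with no overlap at these times. The log2 fold change with IL-21 was 0.35 at 0 h (SE 0.34, adjusted p = 1), -0.98 at 6 h (SE 0.34, adjusted p = 0.246), -0.76 at 24 h (SE 0.34, adjusted p = 0.325) and 1.19 at 72 h (SE 0.34, adjusted p = 0.0527). DESeq2 and limma called the difference at 72 h (adjusted p = 0.0101 and 0.032), as did edgeR without 72 h replicate 2 in IL-15 alone (1.78, adjusted p = 0.00663) and without 72 h replicate 2 with IL-21 (1.34, adjusted p = 0.048).

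The difference between the effects at 2 times was tested directly. For Itgax, the effect of IL-21 at 72 h was higher than that at 6 h by 2.18 (SE 0.49, adjusted p = 0.0282) and than that at 24 h by 1.95 (SE 0.49, adjusted p = 0.0474). With only the groups compared neither difference was called (adjusted p = 0.188 and 0.244), nor without a filter (0.0619 and 0.13), and the second was not called in the second fit (0.0592), with RLE size factors (0.0561) or with the replicate block (0.0597). Itgax was the 1 member called of 4 in each, beside 4.17% and 4.22% of all genes, and the median of all genes was itself at 0.14 and 0.16 in these contrasts. From 24 to 72 h with IL-21, Itgax rose 3.96-fold (log2 fold change 1.99, SE 0.35, adjusted p = 0.00358), the 1 call of 4 beside 14.8% of all genes, and this call was made with every library left out in turn and in the second fit (1.88, adjusted p = 0.0127), which called 2.31% of all genes. The first difference was lost without any 1 library of 0 h or 6 h in IL-15 alone, of 6 h or 24 h with IL-21, or without 72 h replicate 1 with IL-21 (adjusted p from 0.0502 to 0.14). The second was lost without any 1 library of the time course other than 0 h replicate 1 and 72 h replicate 2 with IL-21 and the 72 h libraries in IL-15 alone (0.0517 to 0.207). Without 72 h replicate 1 in IL-15 alone, Itgb2 was called in both differences (3.29 with adjusted p = 0.0169, and 3.67 with adjusted p = 0.0102).

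**Figure D4:**
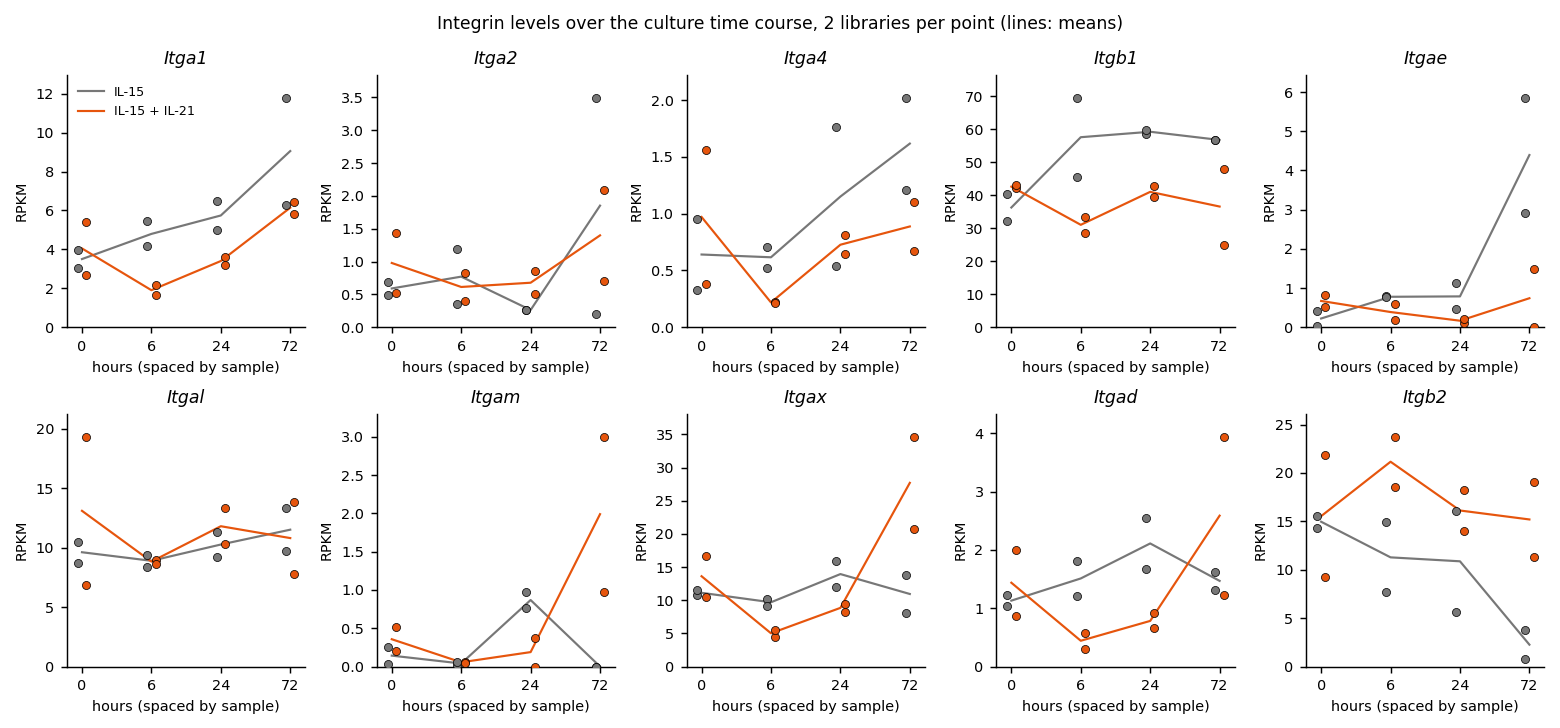
RPKM of the 10 integrins (y axes, each from 0) at 0, 6, 24 and 72 h of culture (x axis, evenly spaced and not to scale) in IL-15 alone and with IL-21, with points for single libraries and lines through the means of 2 libraries. At 72 h Itgb2 lies at 3.77 and 0.747 RPKM in IL-15 alone and at 19.1 and 11.3 with IL-21, and Itgax at 8.10 and 13.8 against 34.6 and 20.7.

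Itgb1 went the other way. It read 69.7 and 45.6 RPKM at 6 h in IL-15 alone against 28.6 and 33.6 with IL-21, 58.7 and 59.9 against 42.7 and 39.4 at 24 h, and 56.7 and 56.9 against 48.1 and 25.1 at 72 h. It was lower with IL-21 at each of these times without overlap, by 0.92, 0.63 and 0.76 on the log2 scale (SE 0.23 each, adjusted p = 0.0819, 0.225 and 0.0613). Without 72 h replicate 1 with IL-21 it was called at 72 h (-1.04, adjusted p = 0.0365). At 0 h it read 40.4 and 32.2 RPKM in IL-15 alone and 42.1 and 43.1 with IL-21 (0.31, adjusted p = 1). Itgal stayed between 6.87 and 19.3 RPKM, with log2 fold changes with IL-21 between -0.23 and 0.48.

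Itga1 read 4.15 and 5.44 RPKM at 6 h in IL-15 alone against 1.64 and 2.17 with IL-21, and 6.47 and 5.01 against 3.19 and 3.61 at 24 h. It was lower with IL-21 at both times (second fit, -1.36 and -0.86, adjusted p = 0.568 and 0.962). At 72 h it read 6.30 and 11.8 RPKM against 5.83 and 6.46, and overlapped. Itgam was at 0 in both libraries at 72 h in IL-15 alone and at 0.979 and 3.00 RPKM with IL-21 (second fit, adjusted p = 0.0464). A floor of 3 counts per library gives at least 113-fold, but covers counting error only. Itgam held 0 and 58 counts in the replicates at 24 h with IL-21, so this is no firm minimum. Its shared exons also make the counts uncertain. At 24 h Itgam had read 0.761 and 0.975 RPKM in IL-15 alone and 0 and 0.377 with IL-21, so its order was the opposite there. Itgae read 5.86 and 2.92 RPKM at 72 h in IL-15 alone, its highest levels in any group of the time course, and 1.48 and 0 with IL-21. Itga2, Itga4 and Itgad stayed at or below 3.94 RPKM in all 16 libraries.

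edgeR called 0 of 4 members for IL-21 at 0, 6 and 24 h, where it called 0%, 1.97% and 1.66% of all genes. It found 0, 2 and 2 members at an unadjusted p below 0.05, and DESeq2 and limma called 0. Without 72 h replicate 1 in IL-15 alone, Itgax was called lower with IL-21 at 6 h (-1.03, adjusted p = 0.048). In IL-15 alone, edgeR called 0 of 4 members from 0 to 6 h, from 6 to 24 h and from 24 to 72 h, beside 0%, 0.0856% and 14.8% of all genes, and found 1, 0 and 1 at an unadjusted p below 0.05. DESeq2 and limma called 0 in the first and second of these steps and 1 in the last, Itgb2 (-1.97 with adjusted p = 0.0208, and -2.22 with adjusted p = 0.0458), as did edgeR without 72 h replicate 1 in IL-15 alone (-3.41, adjusted p = 0.00428). At 72 h, 3 members lay higher with IL-21 without overlap (Itgam, Itgax and Itgb2), beside 19% of all genes, and 3 lower (Itga4, Itgae and Itgb1), beside 9.93%. At 0 h, 2 members lay higher (Itgae and Itgb1, 17.1% of all genes) and none lower (11.2%). At 6 h, 6 lay lower (Itga1, Itga4, Itgae, Itgad, Itgax and Itgb1, 20.9%) and Itgb2 higher (20.5%). At 24 h, 6 lay lower (Itga1, Itgae, Itgam, Itgad, Itgax and Itgb1, 17.4%) and Itga2 higher (29.3%). From 24 to 72 h, 4 lay higher with IL-21 (Itga1, Itgam, Itgad and Itgax, 13.6%) and none lower (33.2%), and in IL-15 alone Itgae lay higher (10.7%) and 4 lower (Itgam, Itgad, Itgb1 and Itgb2, 33.1%). Scaled by TMM, 5 lay higher and 2 lower in IL-15 alone over that step, with 16.1% and 26.7% of all genes, and the fitted change of Itgb1 was 0.29. With IL-21, 5 then lay higher, with Itga4 added, and none lower, beside 20.9% and 26.3% of all genes. For IL-21 at 72 h, the second fit called 2 of 10 members, Itgb2 and Itgam, beside 5.07% of all genes. No marker of macrophages was counted in any library at 72 h, and the 5 dendritic genes summed to at most 0.0381 RPKM in IL-15 alone and 2.84 with IL-21. Other lists moved with the change from 24 to 72 h with IL-21. The 11 trNK markers fell from 21736 to 23568 RPKM at 24 h to 10066 to 12676 at 72 h. The 5 NK markers rose from 10736 to 11268 RPKM to 18024 to 19965, and the 7 T markers from 429 to 470 to 662 to 734. The 7 ILC1 markers summed to 29.1 to 36.9 RPKM at 24 h and 106 to 128 at 72 h, beside 19.7 to 102 at 72 h in IL-15 alone. The 9 markers of the cNK list went from 2998 to 3429 RPKM at 24 h to 6549 to 8753 at 72 h, where S1pr5 and Klf2 were at 0, beside 7377 to 8247 in IL-15 alone. The list holds Klra8 and Klra4, which trNK-like single cells also carried, so its sum does not count cNK alone. By the study's text the culture began with sorted trNK-V, and the part of other cells in the integrin values was not tested.

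Of the ligands, Spp1 was higher with IL-21 at 6 h (1.49, adjusted p = 0.0395) and at 72 h (1.53, adjusted p = 0.0148). From 24 to 72 h in IL-15 alone, Spp1 fell by 1.48 (adjusted p = 0.0109) and Icam2 from 20.2 and 16.6 to 0.11 and 0 RPKM (adjusted p = 0.0256), and Apbb1ip rose by 1.26 (adjusted p = 0.0352). Apbb1ip passed the filter on RPKM only through the libraries at 72 h in IL-15 alone, where it was high, so its call is description only. In each comparison of the time course, 10 of the 30 genes of integrin activation, 3 of the 22 ligands and none of the 16 other integrins were tested, and no other of these was called. The second fit, with more genes of these lists tested, did not call Spp1 at 6 h or Apbb1ip. It also called Icam1, Parvg and Itgav between 24 and 72 h in IL-15 alone, beside 7.68% of all genes. For IL-21 at 72 h it also called Icam1, beside 5.07% of all genes.

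The single cells allow the resident cells to be set beside conventional NK cells, since they were sorted as CD45+NK1.1+NKp46+ with no gate on CD49a. The matrix held 15175 cells, pooled from virgin and gd8.5 uteri, of which 8907 passed the limits on genes and mitochondrial share. The 2 deposited tables list the same 15175 cells with different genes, so the cells were not assigned to virgin or gd8.5 mice. They count as 1 sample, no test was made, and the intervals (95%, exact Poisson) cover counting error only. All integrin genes were left out of the clustering and of the naming. Of 16 clusters, 5 were named trNK-like (4263 cells) and 1 cNK-like (1005 cells, led by S1pr5). The trNK-like clusters of 502, 1648 and 500 cells had no trNK marker 3-fold above the other cells. They were named by trNK markers 2-fold above the cNK-like cluster, with which they are then compared. The cluster of 500 cells had 4 such trNK markers, and also 2 cNK markers 3-fold above the other cells. Another 1062 cells, in 2 clusters, stayed unnamed. B-like and stromal-like cells are given beside the NK classes as a guide to free RNA, but only for genes they do not use themselves: B cells carry α4, αL, β2, β7 and CD55, and stromal cells β1. Free RNA adds to each level by an amount that was not measured, so the ratios given are of levels and are no folds in expression. For B-like cells the median of 1824 UMIs per cell lies near the 1713 of cNK-like cells, while those of the trNK-like clusters run from 2498 to 5706.

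The β1 partners split the classes. Levels are given as CPM, the UMIs of a gene scaled to the same UMI total in each class. Itga1 stood at 272 CPM (interval 265 to 280) in trNK-like cells and 60.4 (49.8 to 72.6) in cNK-like cells, and at 56.4 (39.3 to 78.4) in B-like cells, so the level in cNK-like cells was that of the background. The ratio of the levels in trNK-like and cNK-like cells was 4.51 (3.74 to 5.48). Itga2 stood at 21.5 CPM in trNK-like, 300 in cNK-like, 12.9 in B-like and 33.6 in stromal-like cells, so trNK-like cells as a class were not above the background. The trNK-like cluster of 500 cells was above it, at 87.0 CPM (72.3 to 104), and the rest ran from 1.53 to 31.4. Itga4 stood at 87.4 CPM in trNK-like cells against 995 in cNK-like cells, beside 61.8 in stromal-like and 274 in B-like cells. Itgb1 was nearly level, at 632 CPM in trNK-like cells against 768 in cNK-like cells (ratio 0.823, 0.778 to 0.87).

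Of the β2 group, Itgam, Itgb2 and Itgal were higher in cNK-like cells. Itgam stood at 639 CPM in the cNK-like class and 32.9 in the trNK-like class, beside 49.9 in B-like, 31.6 in T-like and 21.2 in stromal-like cells, so trNK-like cells as a class were near the background. The trNK-like clusters of 500 and 1648 cells stood higher, at 79.2 (65.1 to 95.3) and 68.8 (61.9 to 76.3) CPM. Both intervals overlapped that of B-like cells (33.9 to 70.8), and the rest ran from 4.58 to 18.7 CPM. Itgb2 stood at 245 CPM in trNK-like against 1462 in cNK-like cells, beside 184 in B-like and 127 in stromal-like cells. Itgal stood at 295 against 862 CPM, beside 153 and 68.9. Itgax was close, at 315 CPM in trNK-like cells against 403 in cNK-like cells (ratio 0.782, 0.725 to 0.845). For Itgad the interval of the ratio held 1, at 24.9 against 19.2 CPM (1.29, 0.919 to 1.87). Itgae was at 1.86 and 3.21 CPM beside 1.61 in B-like cells, which is background in both classes. Itgb7 stood at 39.0 CPM in trNK-like cells against 253 in cNK-like cells, beside 96.6 in B-like and 17.7 in stromal-like cells.

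With no upper limit on genes or UMIs, the ratio for Itga1 dropped to 1.18, and a second cluster of 1320 cells then met the criterion for cNK-like cells. That cluster had 1.18 CPM of S1pr5, against 341 in the other cNK-like cluster, and 386 CPM of Itga1. Under the 3 other settings the ratio for Itga1 lay between 3.30 and 5.47. Itga2, Itga4 and Itgam were lower in trNK-like than in cNK-like cells under all 4 settings. For Itgax the ratio ran from 0.156 to 1.46 over these settings and for Itgad from 0.0846 to 2.99, so neither has a settled direction.

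**Figure D5:**
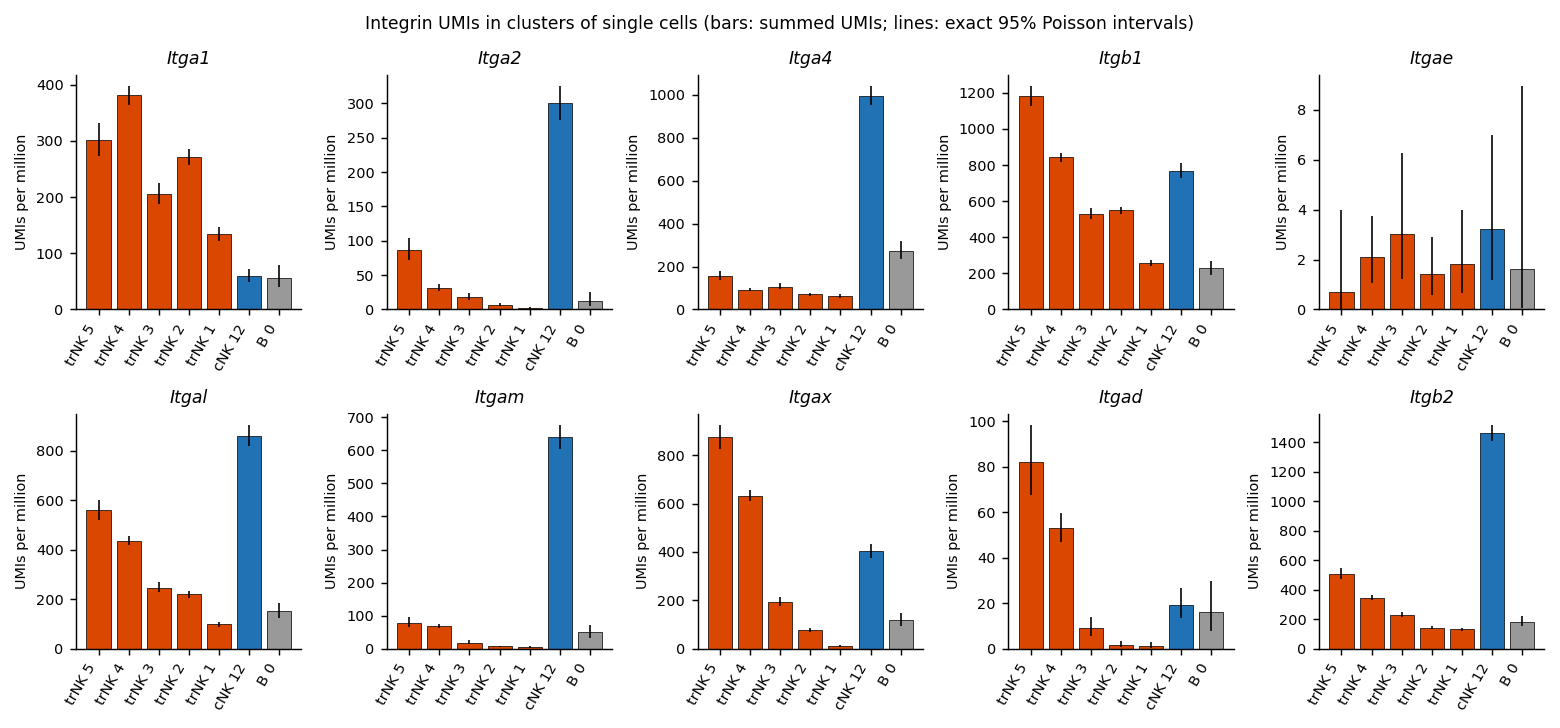
CPM of the 10 integrins (y axes, each from 0) in the 5 trNK-like clusters ordered by rising Gzmd, the cNK-like cluster and B-like cells (x axis), with bars for the level and lines for exact Poisson intervals of 95%, in 1 pooled sample. Itgax runs from 874 in the cluster with least Gzmd to 11 in that with most, while Itga1 runs from 301 to 134 with its highest value, 381, in the second.

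Within the trNK-like cells of the main clustering the integrins varied with the granzyme gene Gzmd. Its level in the 5 clusters was 479, 1519, 3136, 12061 and 13378 CPM, beside 924 in B-like cells, so the first was below that of B-like cells. In the same order, Itgax stood at 874, 633, 194, 76.9 and 11 CPM, beside 118 in B-like and 91.9 in stromal-like cells, so the last 2 clusters were below both. Itgad stood at 82.0, 53.0, 9.13, 1.81 and 1.22 CPM, and Itga2 at 87.0, 31.4, 18.3, 7.05 and 1.53, so the last clusters were below the 16.1 and 12.9 of B-like cells. Itgal stood at 561, 438, 248, 220 and 98.7 CPM beside 153 in B-like and 68.9 in stromal-like cells. Itgb2 stood at 510, 345, 232, 144 and 131 CPM beside 184 and 127, so its last 2 clusters lay between these levels. Itgb1 stood at 1181, 844, 529, 548 and 256 CPM. Itga1 stood at 301, 381, 205, 272 and 134 CPM, without such an order. Other settings kept the order only in part. By rising Gzmd, Itgax fell with limits on UMIs (834, 661 and 221 CPM) and at resolution 0.4 (238 and 52.4). With no upper limit, the trNK-like cluster with most Gzmd had the lowest Itgax (30.0) but the highest Itgb2 (283). With more variable genes, the trNK-like cluster with most Gzmd had the highest Itga1 (441). Its Itgax was 159 CPM, against 52.4 in the cluster next below.

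The clusters with more Gzmd also had more Cd55 (122, 173, 186, 456 and 578 CPM, beside 131 in stromal-like cells), a marker that divided the sorted subsets. Tnfrsf9, the gene of 4-1BB and the other such marker, stood at 471, 934, 744, 1557 and 1075 CPM beside 174 in B-like cells and did not keep that order. The middle cluster was led by genes of cell division such as Pbk and Pclaf. NK markers dropped along the same order. Ncr1 stood at 556, 544, 326, 288 and 129 CPM beside 109 in B-like cells, and Klrb1c at 692, 617, 293, 241 and 87.4 beside 121. In the last cluster neither was clearly above the level in B-like cells. That level is no floor for this cluster, where Itgax stood at 11 CPM against 118 in B-like cells. How much of its Ncr1 and Klrb1c is free RNA was not measured. The part of the cell naming in these values was not tested. Itgax in the first of these clusters (874 CPM, 826 to 925) was above its level in dendritic-like cells, where it stood at 536 CPM (495 to 580), and in macrophage-like cells, at 169 CPM (154 to 185). The dendritic-like cluster also held NK RNA, with Ncr1 at 236 and Klrb1c at 283 CPM. It is therefore no clean reference for dendritic cells.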

How the data were processed

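The authors deposited raw read counts per gene for each bulk library, aligned with HISAT2 2.1.0 to mm10 and counted with featureCounts by the submitters' processing notes, while the methods name RSEM. UMI counts of single cells were deposited from the BD Rhapsody whole transcriptome workflow, in 2 tables. RPKM was computed here from the counts and exon lengths in the files. RNA of few cells was amplified before sequencing, which can raise the spread of low counts. The members and all lists were chosen with earlier results of these data known.

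Each of the 4 experiments was fitted on its own over all its groups with edgeR 4.0.16 (TMM, quasi-likelihood test, Benjamini-Hochberg adjustment over all genes kept, R 4.3.3). Genes were kept where both libraries of some group passed an RPKM of 10 (3503 to 4683 genes), or in the second fit by filterByExpr (13647 to 14879). A gene was called at an adjusted p below 0.05 and a change of at least 2-fold. For differences between effects the same limits held. Alternatives were no filter, RLE size factors, DESeq2 1.42.0, limma 3.58.1 (voom), only the groups compared, the replicate number as a block, and each library left out. The text names every member, other genes of the lists that were called, the partner Itgb7, and the genes most like a member in pattern, of which those for Itgb2 are not reported here.

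Single cells with more than 200 and fewer than 2500 genes and under 10% mitochondrial counts were clustered with scanpy 1.11.5 (2000 variable genes, 20 components, 20 neighbours, Leiden resolution 0.8). Clusters were named from marker lists by thresholds set after the clusters were seen (3 markers at 3-fold above the other cells). A cluster was also named trNK-like by a second rule. It needed 3 NK markers 2-fold above B-like cells and 3 trNK markers 2-fold above cNK-like cells. Scrublet called 5 cells (0.056%), so it was not used and doublets were not removed.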

Additional observations from a re-analysis of the deposited data

Results flagged for a closer look

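The effect of IL-21 on Itgax differed between times of the time course by a test of the difference itself. It was higher at 72 h than at 6 h by 2.18 on the log2 scale, and higher at 72 h than at 24 h by 1.95. Neither call was stable. With 1 of the 16 libraries left out, the count of members called changed in 10 cases for the first difference and in 13 for the second. With only the groups compared, the adjusted p of Itgax was 0.188 and 0.244, and without a filter 0.0619 and 0.13. The second call was also lost under filterByExpr, RLE size factors and the replicate block (adjusted p from 0.0561 to 0.0597).

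The RPKM of Itgax at 72 h lay on opposite sides of the control in the 2 cultures. The log2 ratio of its mean RPKM with IL-21 to that without was -0.26 in the inhibitor culture, where both libraries with IL-21 (36.9 and 42.7 RPKM) lay below those without (45.6 and 49.9), and 1.34 in the time course, where both lay above. The difference between the cultures was not tested. Scaled by TMM, the libraries of the inhibitor culture overlapped and the fitted log2 fold change there was -0.08 (SE 0.34), so no direction can be read from that culture.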

How the results depend on the processing

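Of 149 values of comparisons under settings other than leaving out a library, 115 were rated the same. For a count of members called, this meant an equal or close count. Without a filter, edgeR called 1 of 10 members at gd6.5 against virgin (3.89% of all genes), 1 at gd8.5 against virgin (2.13%), 5 in trNK-T against trNK-V (7.71%), 3 in trNK-T against trNK-D (2.24%), 1 in each comparison of the inhibitor culture (0.687%, 2.17% and 3.07%), 2 for IL-21 at 72 h (5.75%) and 2 from 24 to 72 h in IL-15 alone (6.93%). filterByExpr gave 2 in trNK-T against trNK-V, 2 for IL-21 at 72 h and 0 for the difference of 72 h and 24 h. DESeq2 gave 1 for IL-21 in the inhibitor culture, 2 for IL-21 at 72 h and 1 from 24 to 72 h in IL-15 alone, and limma voom gave 2 and 1 in the latter comparisons. With only the groups compared, IL-21 at 72 h and both differences gave 0. RLE size factors gave 0 for the difference of 72 h and 24 h. Without a filter, edgeR called 1 of 10 members in the difference of 72 h and 6 h (3.31% of all genes). It also called 1 in that of 72 h and 24 h (3.18%). In neither was the member called Itgax (adjusted p = 0.0619 and 0.13).

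With a replicate block, edgeR called 0 members for IL-21 at 72 h (Itgb2 at 2.74, adjusted p = 0.0514) and 0 for the difference of 72 h and 24 h (Itgax, adjusted p = 0.0597), and it changed no other count of members called. The labels do not say what a number marks. Deviations of same-numbered libraries correlated between -0.503 and 0.593 over the experiments (0.0107 to 0.397 in the subsets), so not every pair was above 0.1.

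With each library left out, a lone library was assumed to vary like the others. The count ranged from 0 to 1 at gd6.5 against virgin, 0 to 2 at gd8.5 against virgin, 0 to 1 in trNK-T against trNK-V, 0 to 1 in trNK-T against trNK-D, 0 to 1 for IL-21 at 6 h, 0 to 2 for IL-21 at 72 h, 0 to 1 from 24 to 72 h in IL-15 alone, and 0 to 2 for both differences.

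In single cells, the ratio of trNK-like to cNK-like cells for Itga1 was 1.18 with no upper limit on genes and 3.30 at resolution 0.4. For Itga2 it was 0.0929 with limits on UMIs, 0.0269 at resolution 0.4 and 0.0603 with more variable genes. For Itgam it was 0.0886 with limits on UMIs, 0.0459 with no upper limit and 0.0149 at resolution 0.4. For Itga4 it was 0.0945 with limits on UMIs, 0.278 with no upper limit and 0.0779 at resolution 0.4. The causes of these changes were not tested. Itgae and Itgam were at 0 in 3 libraries each, and few counts stand behind their folds.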

Other observations

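Genes with a pattern like that of an integrin were sought over the 34 bulk libraries, by Pearson's r of log2(RPKM + 1) centred on each experiment, among the 2662 genes kept in all 4. The libraries of an experiment share its preparation, so r is a description. Itgax was most like Gimap3 (0.883), Gimap4 (0.871) and Slfn2 (0.843). Itgb1 was most like St3gal6 (0.771), Qpct (0.762) and Tmem59 (0.757). For Itgal the values were lower, with Lgals8 (0.64), Stat4 (0.637) and Cd27 (0.61). The β2 chain was not close to its partners, with r of 0.252 between Itgb2 and Itgal and 0.094 between Itgb2 and Itgax.

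Itgb7, the partner of Itgae, was far above Itgae in the sorted subsets and varied between libraries of a group. It read 36.6 and 41.2 RPKM in trNK-V, 8.94 and 50.1 in trNK-D, and 13 and 40.0 in trNK-T.

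The unnamed single cells, 2 clusters of 857 and 205 cells, the larger led by mast cell proteases, T cell receptor gamma genes and Cxcr6, together held Itgax at 776 CPM and Itga1 at 327 CPM. In the larger, 4 markers each of ILC1 and mast cells and 3 of T cells were at least 3-fold higher than in all other cells together. Itgae stood at 19.1 CPM in the larger, at 29.7 in T-like and 24.6 in dendritic-like cells, above the 1.61 of B-like cells, while Itgam stood at 353 CPM in macrophage-like and 196 in dendritic-like cells.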
